A study of Mus musculus with 5 samples.

Results

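The subject is Il10, the gene of the cytokine interleukin 10, together with 6 genes through which its signal runs: the receptor chains Il10ra and Il10rb, the kinases Jak1 and Tyk2, the transcription factor Stat3 and its target Socs3. All 7 were found among the 27179 gene identifiers of the count table. Il10 was chosen by its counts in the comparison of genotypes, where it was almost absent from wild type libraries and present in every knockout library, so its values are given as a description and without a test. The other 6 genes were taken for their role in the pathway, and each was tested.

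The RNA came from Langerhans cells, macrophages of dendritic shape that live in the epidermis; 5000 cells per library were purified from skin of C57BL/6 mice 1 week old. There were 2 wild type libraries and 3 libraries from mice with a conditional knockout of Suz12, written cKO. Suz12 belongs to the core of Polycomb repressive complex 2, which methylates histone H3 at lysine 27 and keeps many genes silent. The Cre driver of the conditional allele, and whether the wild type mice carried a Cre or a floxed allele, were not stated in the labels used here.

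Interleukin 10 is a cytokine that restrains inflammation. It binds a receptor of a ligand-specific chain, Il10ra, and a chain shared with other cytokines of its family, Il10rb. The kinases Jak1 and Tyk2, which sit on these chains, then phosphorylate Stat3, and Stat3 switches on genes such as Socs3 that dampen cytokine signalling. Macrophages and dendritic cells both make interleukin 10 and respond to it, and in them it lowers the output of inflammatory cytokines, chemokines and costimulatory molecules.

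The libraries held 12090062 to 25725900 counts and 9103 to 10220 genes with at least 1 count. Levels are given as CPM, counts per 1e+06 counts of a library after TMM scaling between libraries. A count of 0 allows a level of at most 0.106 to 0.258 CPM, depending on the library (3 counts). Such limits and the counting intervals below cover counting error alone and treat each count as a separate molecule. PCR copies of a molecule were not told apart, so the limits can be too low and the intervals too narrow. In the direction of the labels, wild type had 88 and 39 Suz12 counts, whereas cKO replicates 1 to 3 had 0, 0 and 7. All 10 Langerhans cell markers had counts in every library, and langerin (Cd207) lay at 6639 to 14597 CPM. Groups did not overlap for 1 of the 10, beside 19% of all 9988 tested genes. It was Mfge8, at 2811 and 2553 against 3961, 5316 and 3456 CPM. Alveolar macrophages are given as the source in the labels. Of 7 markers of those cells, Siglecf, Car4, Chil3 and Fabp1 had no count. The other 3 were counted: Ear2 at 63.8 to 466 CPM, Krt79 at 91.3 to 177 CPM, and Marco at 45.7 and 0.118 CPM in wild type with no cKO count. All 7 together made up 688 and 213 CPM for wild type and between 162 and 365 CPM for cKO. The wild type libraries stood apart from each other in sex-linked genes: Xist had 1172 counts in wild type replicate 2 and none elsewhere. The Y-linked gene Ddx3y had 1482 counts in wild type replicate 1, 1 count in wild type replicate 2 and 769 to 1523 counts in the cKO libraries. Genotype and the sex of the animals can therefore not be told apart in wild type replicate 2.

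The ligand gene separated the genotypes. Il10 (chromosome 1, 131019845 to 131024970, mm10) had 1 count in wild type replicate 1 and 0 in wild type replicate 2. The cKO libraries had 6454, 911 and 1851 counts. In CPM these are 0.0529 and 0 for wild type against 404, 32.3 and 159 for cKO replicates 1, 2 and 3. The cKO libraries themselves differed 12.5-fold, with replicate 1 highest and replicate 2 lowest. Since Il10 was chosen on these counts, the ratios to the single wild type count are a description only. Their intervals cover no more than counting error within these libraries. The ratio was 14480 for replicate 1 (95% counting interval 2598 to 572000), 1156 for replicate 2 (207 to 45730) and 5698 for replicate 3 (1021 to 225200). In bulk samples such as these, fewer cells making a transcript and less transcript per cell cannot be told apart.

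Among tested genes with at most 3 counts over the wild type libraries, Il10 had the highest level in its lowest cKO library, 32.3 CPM. The genes next to it in that order were Klhl28 with 19.3 CPM and Ppm1j with 18.7 CPM in their lowest cKO library. Il10 was the 1 gene of 9988 (0.01%) with at most 3 wild type counts and at least 30 CPM in every cKO library. The limit of 30 CPM lies just under its own lowest cKO value, and Il10 was chosen on these counts. Both the rank and this count therefore describe the choice and are no test of it. Genes that were high in one library and near absent from another were common here: 36.9% of the 9988 tested genes lay at 10 CPM or more in some library and under 1 CPM in another. Among the 7 genes of the axis, Il10 and Il10ra did so.

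**Figure D1:**
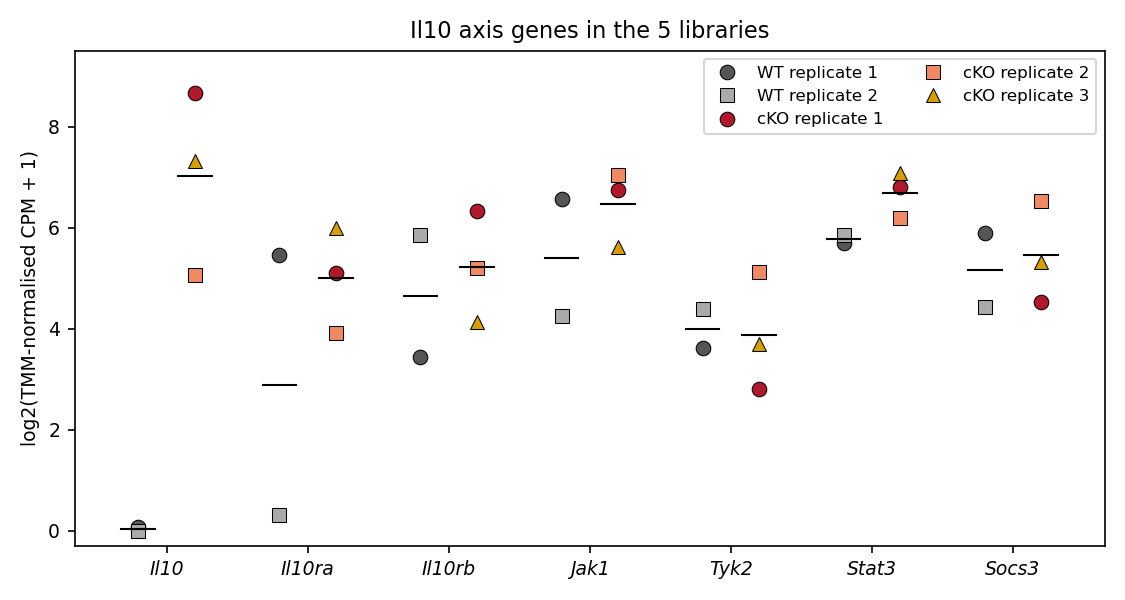
Level of each gene in each library, as log2(TMM-normalised CPM + 1); grey symbols are the 2 wild type libraries, coloured symbols the 3 cKO libraries, and bars the mean of a group on that scale. Il10 and Stat3 are the genes whose groups do not overlap, and the wild type libraries lie far apart for Il10ra and Jak1.

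The receptor genes did not follow the ligand. Il10ra, the chain that binds interleukin 10 itself (chromosome 9, 45253837 to 45269149), lay at 42.9 CPM in wild type replicate 1 and at 0.236 CPM, or 4 counts, in wild type replicate 2. In the cKO libraries it lay at 33.4, 14.1 and 62.3 CPM. Wild type replicate 1 thus lay within the cKO range, while wild type replicate 2 held almost no transcript of this chain. The log2 fold change, cKO minus wild type, was 0.76 with a standard error of 1.69 (95% interval -3.28 to 4.81, edgeR adjusted p = 0.999). It became -0.23 when wild type replicate 2 was left out and 7.24 when wild type replicate 1 was, so its sign rests on which wild type library is kept.

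Il10rb, the shared chain, which also serves interleukin 22 and the interferon lambda cytokines (chromosome 16, 91406157 to 91425834), showed the opposite order in wild type. It lay at 9.79 CPM in wild type replicate 1 and 56.6 CPM in wild type replicate 2, with cKO values of 79.2, 35.9 and 16.4 CPM. Both groups spread over most of the same range. The log2 fold change was 0.40 (SE 1.02, 95% interval -2.05 to 2.85, edgeR adjusted p = 0.999), and it was -0.37 without wild type replicate 1 and -0.32 without cKO replicate 1. Wild type replicate 1 was thus rich in Il10ra and poor in Il10rb, and wild type replicate 2 the reverse. In cKO replicate 1, the library with the most Il10, both chains were present.

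The kinase genes overlapped between genotypes. Jak1, a kinase used by many cytokine receptors (chromosome 4, 101151974 to 101265282), lay at 93.4 and 17.9 CPM in wild type against 106, 131 and 48.1 CPM in cKO. Wild type replicate 2 was the lowest library and cKO replicate 3 the next, and wild type replicate 1 lay between the cKO libraries. The log2 fold change was 0.77 (SE 0.80, 95% interval -1.14 to 2.68, edgeR adjusted p = 0.999). It was 0.03 when wild type replicate 2 was left out and 2.41 when wild type replicate 1 was.

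Tyk2, the partner kinase (chromosome 9, 21104068 to 21131393), lay at 11.3 and 19.8 CPM in wild type against 6.01, 33.9 and 11.9 CPM in cKO. The cKO libraries held both the lowest and the highest value. Its log2 fold change was 0.15 (SE 1.43, 95% interval -3.24 to 3.55, edgeR adjusted p = 0.999), and it was -0.79 without cKO replicate 2, the library with the most Tyk2, and -0.19 without wild type replicate 1.

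Stat3 was the gene of the 6 whose cKO libraries all lay above both wild type libraries. It encodes the transcription factor that carries the interleukin 10 signal to the nucleus (chromosome 11, 100886806 to 100939594). Stat3 lay at 50.4 and 56.7 CPM in wild type against 111, 72.0 and 134 CPM in cKO, with means of 53.6 ± 4.44 and 106 ± 31.1 CPM (SD; 2 wild type and 3 cKO libraries). The wild type libraries were close together, and the lowest cKO library, replicate 2, was also the cKO library with the least Il10. The highest, however, was replicate 3, whereas replicate 1 had the most Il10. The log2 fold change was 0.98 (SE 0.46, 95% interval -0.12 to 2.08), and it missed the threshold over all genes (unadjusted p = 0.0738, edgeR adjusted p = 0.968). Leaving out each library in turn gave 0.77 to 1.19. The sample titles come in 2 styles, "LC" and "Langerhans-cell", and what these mark is not stated. Within the first style the ratio of cKO to wild type was 1.81 (n = 1 wild type and 2 cKO), and within the second it was 2.36 (n = 1 and 1). Both ratios had to exceed 1, since every cKO library lay above both wild type libraries, so they add no separate evidence. With 1 Stat3 among 6 genes, 16.7% had all cKO libraries higher, beside 8.87% of all 9988 tested genes (10.2% had all cKO libraries lower), which is no result about this set of genes.

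Socs3 encodes an inhibitor of Jak kinases and is a classical target of Stat3 (chromosome 11, 117966079 to 117970336). It lay at 58.1 and 20.5 CPM in wild type against 22.0, 90.6 and 38.7 CPM in cKO. The library with the most Il10, cKO replicate 1, had nearly the least Socs3, and cKO replicate 2, with the least Il10 of the cKO libraries, had the most Socs3. The log2 fold change was 0.36 (SE 0.85, 95% interval -1.66 to 2.38, edgeR adjusted p = 0.999). It was -0.18 without wild type replicate 2 and -0.37 without cKO replicate 2.

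edgeR thus called 0 of the 6 tested genes at an adjusted p of 0.05, and 0 at an unadjusted p of 0.05, while DESeq2 and limma-voom also called 0 of them. Over the whole table edgeR called 0% of the 9988 tested genes, with 2.1% higher and 2.05% lower at an unadjusted p of 0.05, 415 genes in all. DESeq2 called 191 genes and limma-voom 0. All 7 genes of the axis passed the filter on low counts, Il10 through its cKO libraries alone. All 6 tested genes had a fold change above 0, as did 52.5% of all tested genes, but for Il10ra, Il10rb, Tyk2 and Socs3 that sign turned when a library was left out.

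**Figure D2:**
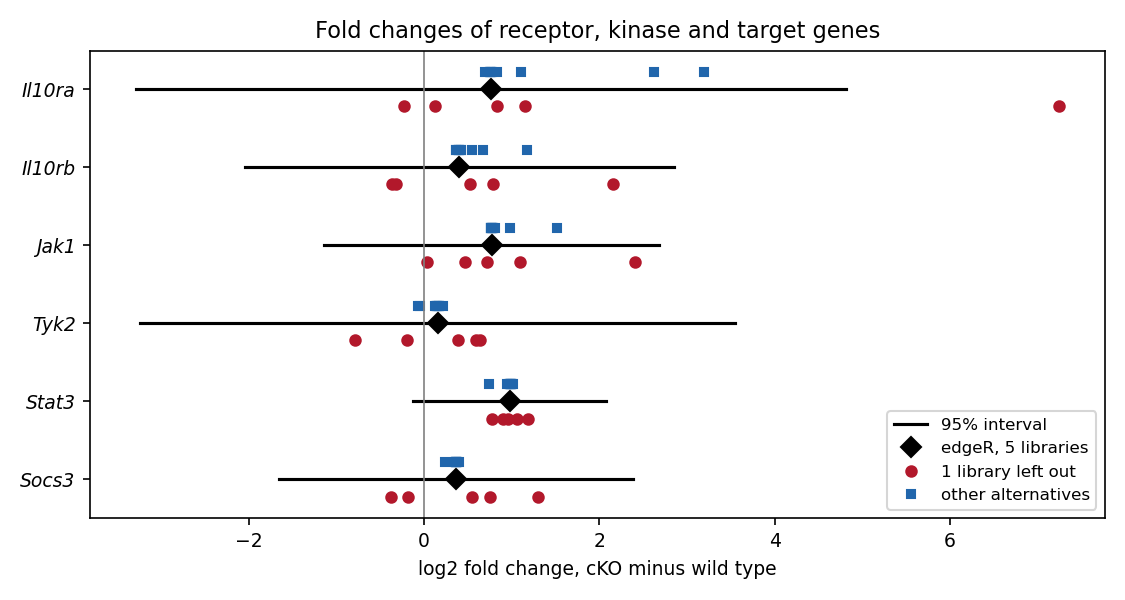
Log2 fold change of cKO minus wild type for the 6 tested genes; diamonds are the edgeR estimates with 95% intervals, circles the values with 1 library left out and squares the other alternatives. Every interval includes 0, and Stat3 and Jak1 are the genes whose values all stay above 0, with Stat3 between 0.74 and 1.19.

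Levels can be compared between genes only per length, as CPM per kilobase of annotated gene length. In wild type the order was Il10rb (17.9 ± 17.9), Socs3 (14.4 ± 9.73), Stat3 (11.9 ± 0.989), Jak1 (10.5 ± 10.1), Il10ra (6.17 ± 8.63), Tyk2 (3.19 ± 1.24) and Il10 (0.0203 ± 0.0287 CPM per kilobase, SD, n = 2). Neighbours in that order did not differ beyond their spread, except that Tyk2 and Il10 lay apart. In cKO the order was Il10 (152 ± 145), Il10rb (23.7 ± 17.4), Stat3 (23.5 ± 6.94), Socs3 (18.5 ± 13.1), Jak1 (17.9 ± 7.99), Il10ra (10.5 ± 6.96) and Tyk2 (3.54 ± 3.01 CPM per kilobase, SD, n = 3). No neighbours in that order differed beyond their spread. Il10 stood last in wild type and first in cKO, at 309, 24.7 and 122 CPM per kilobase in cKO replicates 1 to 3. In cKO replicate 2 it lay below Socs3, which stood at 33.2 CPM per kilobase, and about level with Jak1 at 24.6 CPM per kilobase.

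Windows around transcript starts, from 250 bases before to 50 after, were found in RefSeq (GRCm38.p6) for 4 of the 7 genes: Jak1, Tyk2, Stat3 and Socs3. Those of Stat3, the gene whose groups separated, and of Socs3, its target, are shown. They are limited to the bases ahead of annotated exons that overlap the window, and are written along the minus strand from 5′ to 3′. Capitals mark matches, on either strand, to TTCNNNGAA (the palindrome that STAT dimers bind), GGGCGG (the GC box) and CCAAT (read as ATTGG on the other strand); no match overlaps another. The Socs3 window lies inside the annotated span of its gene, which runs on to 117970336, so its bases are not ahead of the whole gene.
Stat3, chr11:100939595-100939790, 196 bases: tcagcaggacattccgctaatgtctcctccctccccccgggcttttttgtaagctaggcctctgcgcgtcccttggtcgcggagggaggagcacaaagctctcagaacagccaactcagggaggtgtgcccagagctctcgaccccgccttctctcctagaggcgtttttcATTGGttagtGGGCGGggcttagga
Socs3, chr11:117969452-117969616, 165 bases: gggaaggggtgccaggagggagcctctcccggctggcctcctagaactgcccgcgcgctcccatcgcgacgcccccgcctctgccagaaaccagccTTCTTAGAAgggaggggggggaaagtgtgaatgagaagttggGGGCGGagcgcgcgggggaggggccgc

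The Socs3 window held 1 match to TTCNNNGAA, and the windows of Stat3, Jak1 and Tyk2 held 0, while 8.3% of all 32851 windows of this length held at least 1. GGGCGG was found in all 4 windows and in 35.7% of all windows, and CCAAT in those of Jak1, Tyk2 and Stat3 and in 37.4% of all. All 4 windows were rich in CpG, with 29 CpG in Jak1, 23 in Tyk2, 15 in Stat3 and 31 in Socs3 against a median of 7. A match is a description of the letters in the window, and no match says only that these letters are not in it.

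The other ligands of the family were at or near absence. Il19, Il20, Il22, Ifnl2 and Ifnl3 had no count in any library, and Il24 had 173 counts in cKO replicate 1 alone. Of the family, Il10 was the ligand with enough counts to test. Among 11 chains of the class II cytokine receptor family, Il20ra, Il20rb, Il22ra1, Il22ra2 and Ifnlr1 had no count, so the chains that pair with Il10rb for interleukin 22 and interferon lambda were not detected. Of the 6 tested chains 4 were on the higher side and 2 on the lower, and the median log2 fold change was 0.44, beside 0.06 over all tested genes. That median was 0.05 when either wild type replicate 2 or cKO replicate 1 was left out, 0.25 without cKO replicate 3 and 0.69 without cKO replicate 2. The median over all tested genes was 0.37 without wild type replicate 2 and 0.03 without cKO replicate 1. All cKO libraries were higher for 1 of the 6 chains, or 16.7%, beside 8.87% of all tested genes. It was Ifnar1, a chain of the type I interferon receptor that signals through Tyk2. Ifnar1 lay at 22.4 and 18.0 CPM in wild type against 53.8, 68.7 and 63.6 CPM in cKO (log2 fold change 1.62, SE 0.61, edgeR adjusted p = 0.968).

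The wider kinase and STAT family was divided. Of 10 tested genes 6 were on the higher side and 4 on the lower, and edgeR called 0. Groups did not overlap for 1 of the 10, Stat3, or 10%, beside 8.87% of all tested genes with all cKO libraries higher. The median log2 fold change was 0.16, but 1.41 or 0.0051 when wild type replicate 1 or 2 was left out and -0.10 without cKO replicate 2. Over all tested genes it was 0.29 or 0.37 without wild type replicate 1 or 2. Among SOCS, PIAS and phosphatase genes, which inhibit cytokine signalling, 10 of 14 tested lay higher (median 0.55, or 0.84 without wild type replicate 2; 0 called). All cKO libraries lay higher for 2 of the 14, against 8.87% of all tested genes. Socs1, an inhibitor of interferon and other Jak signals, lay at 40.1 and 42.4 CPM in wild type against 168, 55.5 and 65.4 CPM in cKO. The phosphatase gene Ptpn1 lay at 98.1 and 98.6 CPM and at 126, 109 and 170 CPM. Socs1 was highest in cKO replicate 1, where Socs3 was lowest among the cKO libraries. Pias3 stayed under 1 CPM in every library and was not tested.

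Other receptors also signal through Stat3. Of 9 such genes 4 (Il22ra1, Osmr, Il27ra and Lepr) had no count, and all 5 tested genes had a fold change above 0 (median 1.09, 0 called). The shared chain of the interleukin 6 family, Il6st, lay at 16.1 and 9.73 CPM in wild type against 16.9, 26.6 and 38.9 CPM in cKO, so cKO replicate 1 differed little from wild type replicate 1. Lifr, the receptor of leukemia inhibitory factor, was not counted in wild type. Its cKO counts were 2, 317 and 78, of which the first lies below the limit of 3 counts. With Lifr set to its lower bound the median stayed at 1.09, while leaving out wild type replicate 1 gave 9.60, and leaving out cKO replicate 2 or 3 gave 0.67 or 0.50.

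Genes that interleukin 10 and Stat3 are known to induce were counted without Il10. Of 16 tested genes 12 lay higher (median log2 fold change 0.39), and edgeR called 0, with 0 at an unadjusted p of 0.05. That median was 0.76 or 0.21 when wild type replicate 1 or 2 was left out, beside 0.29 or 0.37 over all tested genes, and 0.12 without cKO replicate 2. Every cKO library exceeded both wild type libraries for 5 of the 16, or 31.2%, against 8.87% of all tested genes. Earlier results of these data were known when this list was chosen, so the share is no independent evidence. Mcl1, a survival gene, lay at 390 and 500 CPM in wild type against 580, 677 and 531 CPM in cKO. Bcl3, a regulator of NF-kappa-B, lay at 74.1 and 23.8 CPM in wild type against 103, 76.1 and 95.9 CPM in cKO. The growth regulator Myc lay at 34.4 and 31.0 against 94.98, 136 and 42.6 CPM. Il4ra, the receptor of interleukin 4, lay at 22.4 and 25.2 against 52.5, 71.6 and 60.2 CPM, and the heme oxygenase gene Hmox1 at 0.635 and 3.95 against 5.69, 14.4 and 14.7 CPM. For Bcl3 and Mcl1 the highest wild type library came close to the lowest cKO library, while for Il4ra it lay well below. The cKO libraries of Bcl3 stood in the order seen for Il10, and those of Mcl1, Myc, Il4ra and Hmox1 did not. An order of 3 libraries is readily matched, and a link with Il10 was not tested. Several of these genes respond to many signals besides Stat3.

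Genes that interleukin 10 is known to restrain did not lie lower as a group. Of 20 tested genes 12 were on the higher side and 8 on the lower, edgeR called 0, and 4 had an unadjusted p under 0.05. The median was 0.62, and it was 0.38 or 0.30 when wild type replicate 1 or 2 was left out and 0.18 without cKO replicate 1. Over all tested genes it was 0.29 or 0.37 without wild type replicate 1 or 2. All cKO libraries were higher for 6 genes, or 30%, and lower for 1, beside 8.87% and 10.2% of all tested genes. Cxcl3, a neutrophil chemokine, averaged 20.2 ± 1.06 CPM in the wild type and 207 ± 54.9 CPM in the cKO libraries (SD; 2 and 3 libraries). The interleukin 1 alpha gene Il1a lay at 105 ± 31.9 and 452 ± 173 CPM, the chemokine gene Cxcl2 at 2196 ± 526 and 4240 ± 350 CPM, Ccl3 at 38.0 ± 26.1 and 183 ± 93.7 CPM, and Ccl4 at 37.5 ± 19.8 and 87.3 ± 32.2 CPM. The class II gene H2-Eb1 was the sixth, at 13677 ± 264 and 16266 ± 1814 CPM. Ciita, the transactivator of class II genes, was the 1 gene with all cKO libraries lower, at 14.9 and 38.1 CPM in wild type against 0, 7.04 and 7.38 CPM in cKO. For the other genes on the lower side the groups overlapped. They were Il6 (log2 fold change -1.81), Il23a (-1.11), Cxcl10 (-0.78), Tnf (-0.44), Il1b (-0.20), H2-Ab1 (-0.10) and H2-Aa (-0.02). Il12a, Csf2 and Nos2 had no count. Chemokine genes with near-identical stretches can share reads, which leaves the split between Ccl3 and Ccl4, or Cxcl2 and Cxcl3, uncertain. These genes stood out in earlier analyses of the same counts, so their direction is no independent evidence.

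**Figure D3:**
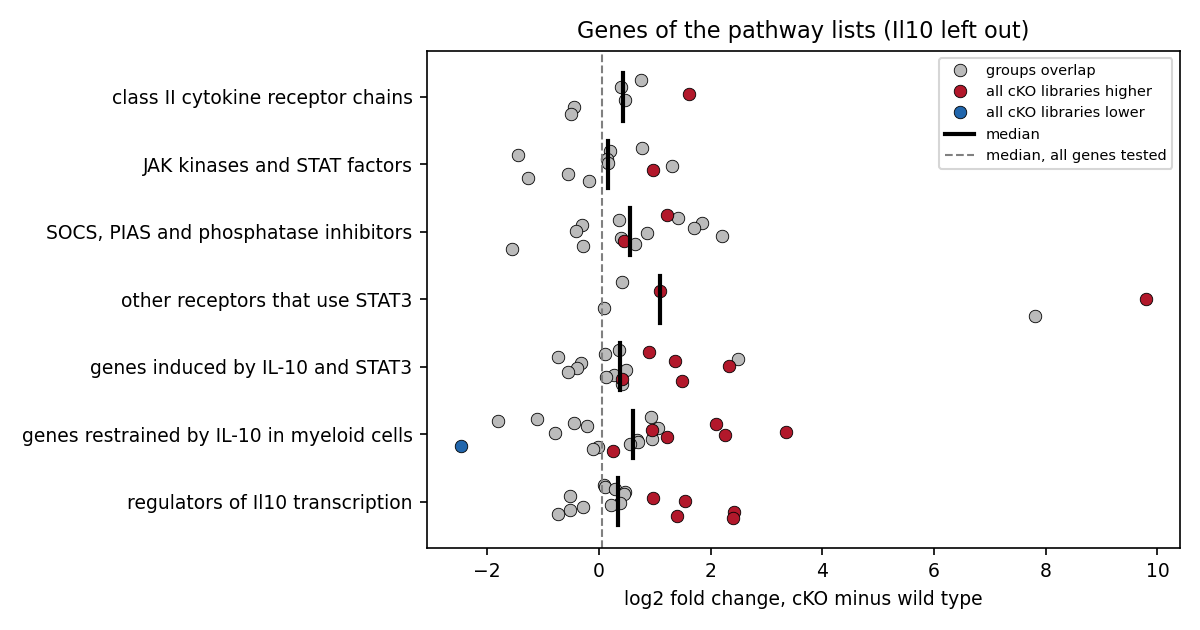
Log2 fold change of each tested gene in 7 lists of pathway genes, Il10 left out; red points are genes with all cKO libraries above both wild type libraries, blue points all below, black bars the list medians and the dashed line the median of all tested genes, 0.06. All list medians lie right of the dashed line in this fit of 5 libraries, and edgeR called none of the genes. Without wild type replicate 2 the median of all tested genes is 0.37, and only the inhibitor list and the other Stat3 receptors keep medians above it. The far right points are Lifr and Csf3r, whose fitted values depend on 0 or 1 wild type counts.

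Factors known to bind or restrain the Il10 gene were measured in the same libraries. Of 16 tested genes 12 lay higher (median log2 fold change 0.34, 0 called, 2 with an unadjusted p under 0.05). Leaving out cKO replicate 2 gave a median of 0.21, and leaving out cKO replicate 3 gave 0.61. For 5, or 31.2%, every cKO library exceeded both wild type libraries, beside 8.87% of all tested genes. Stat3 is among them, since it is also on this list. The list was chosen with earlier results of these data known, so this share is no independent evidence. Rel, an NF-kappa-B subunit, lay at 26.7 and 18.9 CPM in wild type against 106, 117 and 143 CPM in cKO (log2 fold change 2.42, SE 0.47, edgeR adjusted p = 0.968). Bhlhe40, a repressor of Il10 in lymphocytes, also lay higher, at 116 and 113 against 277, 393 and 230 CPM. Irf4 lay at 68.1 and 1.24 against 119, 97.9 and 84.6 CPM, and Gata3 at 0.106 and 7.13 against 29.6, 10.4 and 17.2 CPM. Rel and Bhlhe40 had close wild type values, while Irf4 and Gata3 differed widely between the wild type libraries. Maf, an activator of Il10 in macrophages and T cells, had 14 counts in cKO replicate 1 and none in the other libraries.

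Genes beside Il10 on chromosome 1 did not share its pattern. Of the protein-coding genes listed within 250 kilobases, Mapkapk2, which encodes a kinase downstream of p38, starts 33.9 kilobases from the Il10 start. It lay at 82.5 and 39.5 CPM in wild type against 44.7, 146 and 68.9 CPM in cKO, with the groups overlapping. Rassf5 lay at 60.1 and 65.8 CPM in wild type against 19.0, 54.5 and 102 CPM in cKO. Eif2d, which overlaps Rassf5 in the annotation, had no count in wild type replicate 1 and lay at 55.2 CPM in wild type replicate 2 and 12.2, 71.8 and 47.1 CPM in cKO. Fcamr and Fcmr had 46 and 82 counts in cKO replicate 3 and none elsewhere, and Il24 was counted in cKO replicate 1. Pigr, Il20, Il19, Dyrk3 and Ikbke had no count. In cKO replicate 2 no neighbour without counts in wild type was detected, although Il10 was.

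**Figure D4:**
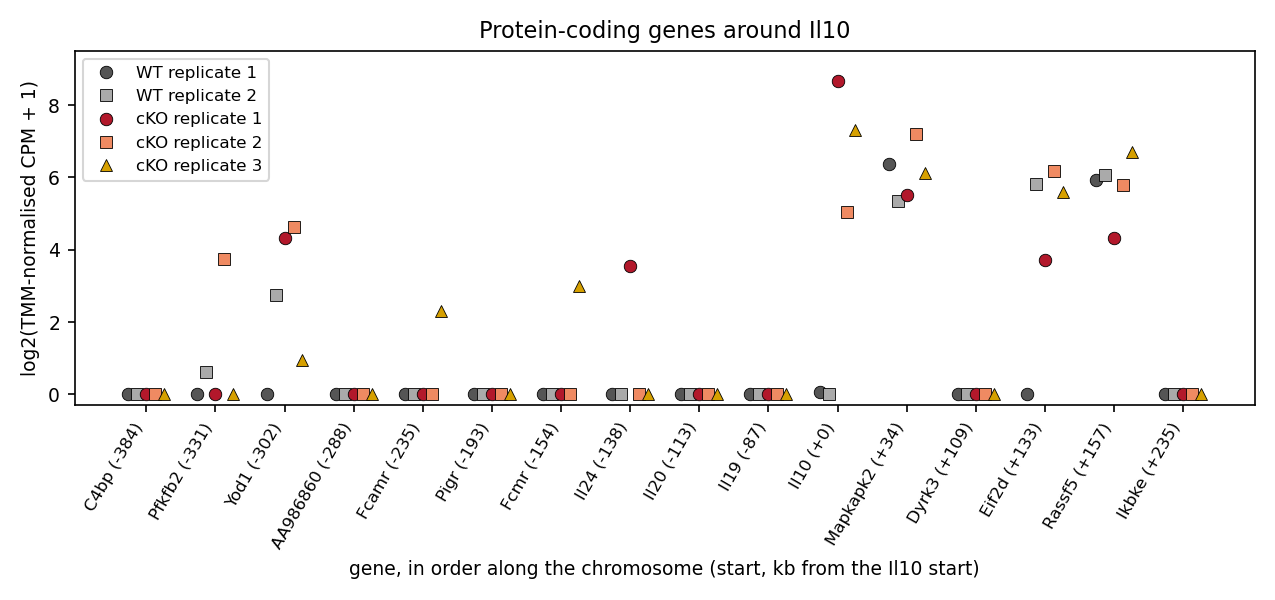
Levels of the annotated protein-coding genes within 400 kilobases of Il10, as log2(TMM-normalised CPM + 1) in each library, in order along the chromosome with the distance of each start from the Il10 start in kilobases. Il10 is the gene near 0 in both wild type libraries and high in all 3 cKO libraries; most neighbours have no count or overlap between the genotypes.

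The genes most like Il10 in profile were found by the distance between log2(CPM + 1) values centred over the 5 libraries, where smaller is more alike and the median gene lay at 8.33. The nearest was Sult2b1, a sulfotransferase gene, at 2.64, with 0.106 and 0.590 CPM in wild type against 85.9, 10.2 and 35.9 CPM in cKO. Tnfsf11, the cytokine RANKL, followed at 2.78, with 0.953 and 0 against 71.6, 15.3 and 39.1 CPM. Both had the same order of the cKO libraries as Il10. Eif2s3y, a Y-linked gene, came next, with 1.38 and 0 CPM in wild type against 80.7, 61.0 and 105 CPM in cKO, followed by Asns, the asparagine synthetase gene, at 3.05 and 9930021J03Rik at 3.25. All of these genes were low in both wild type libraries. They were chosen for nearness to the Il10 profile, so low wild type values and a like order are no separate evidence. Eif2s3y was low in wild type replicate 1 although Ddx3y, also Y-linked, had 1482 counts there and Il10 had 1. The part of the animals' sex in the level of Il10 was not tested.

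Other cells of skin also make interleukin 10, and their markers were measured beside it. All 5 B cell markers had no count in any library, and neither did Foxp3, the factor of regulatory T cells. Of 7 mast cell markers 5 (Cpa3, Fcer1a, Ms4a2, Mcpt4 and Tpsb2) had no count, and the list summed to 0 CPM in cKO replicate 1, where Il10 was highest, and to at most 5.81 CPM elsewhere. Gata2 had 164 and 26 counts in cKO replicates 2 and 3 alone, and Kit 2 and 38 counts in wild type replicates 1 and 2 alone. T cell markers were present, with sums of 580 and 413 CPM in wild type against 651, 237 and 182 CPM in cKO. None of the 4 tested T cell genes had a fold change above 0, beside 52.5% of all tested genes, and Cd3e was near 0 (log2 fold change -0.008). Cd4 and Lck had 642 and 303 counts in cKO replicate 2, 1 each in cKO replicate 1 and none elsewhere. Cd8a had 8 counts in wild type replicate 2 alone. These were not tested. All cKO libraries were lower for 1 of the 4 tested genes, beside 10.2% of all tested genes. It was Cd3d, a chain of the T cell receptor complex, at 106 and 67.6 against 41.8, 21.8 and 35.2 CPM. Sums of dermal macrophage markers were 773 and 534 CPM in wild type against 240, 575 and 417 CPM in cKO, with Folr2 and Lyve1 at 0. Of the 6 tested genes of that list 5 lay lower (median log2 fold change -0.79, 0 called), and all cKO libraries were lower for 3, the complement genes C1qb and C1qc and the mannose receptor gene Mrc1. Over all tested genes, 52.5% had a fold change above 0, and 10.2% had all cKO libraries lower. C1qc lay at 321 and 215 against 13.5, 169 and 148 CPM. The gene on the higher side was Timd4, a receptor of resident macrophages, at 7.57 and 1.95 CPM in wild type against 81.0, 3.96 and 44.6 CPM in cKO. Its cKO libraries stood in the order seen for Il10, but an order of 3 libraries is readily matched and a link was not tested. Monocyte markers added up to 2103 and 1085 CPM in wild type against 537, 656 and 500 CPM in cKO, almost all of it Lyz2. Neutrophil markers summed to 170 and 185 against 240, 536 and 255 CPM, nearly all of it the protease gene Mmp9 (170 and 185 against 230, 523 and 249 CPM), with S100a9 and Cxcr2 at 0 and S100a8 counted in cKO replicate 3 alone. Markers of natural killer and innate lymphoid cells summed to 112 and 68.6 against 259, 209 and 82.2 CPM, most of it Il7r, with Ncr1 and Gzma at 0, while the receptor gene Klrb1c lay at 1.85 and 20.4 against 1.06, 1.35 and 1.63 CPM. Keratinocyte markers added up to 178 and 539 CPM in wild type against 466, 802 and 680 CPM in cKO. All 6 tested keratinocyte genes had a fold change above 0 (median 0.79, edgeR called 0, 2 with an unadjusted p under 0.05), beside 52.5% of all tested genes. All cKO libraries were higher for 2 of the 6, beside 8.87% of all tested genes. Krt10, a keratin of differentiating epidermis, lay at 9.05 and 25.4 against 58.2, 40.5 and 118 CPM, and Krtdap at 45.4 and 76.8 against 124, 145 and 336 CPM. Il10 was highest in cKO replicate 1, where the sums of T cell and of natural killer and innate lymphoid markers were highest too. The sums of mast cell and dermal macrophage markers were lowest there. The part of the T cell, macrophage, neutrophil, innate lymphoid and keratinocyte transcripts in the level of Il10 was not tested.

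**Figure D5:**
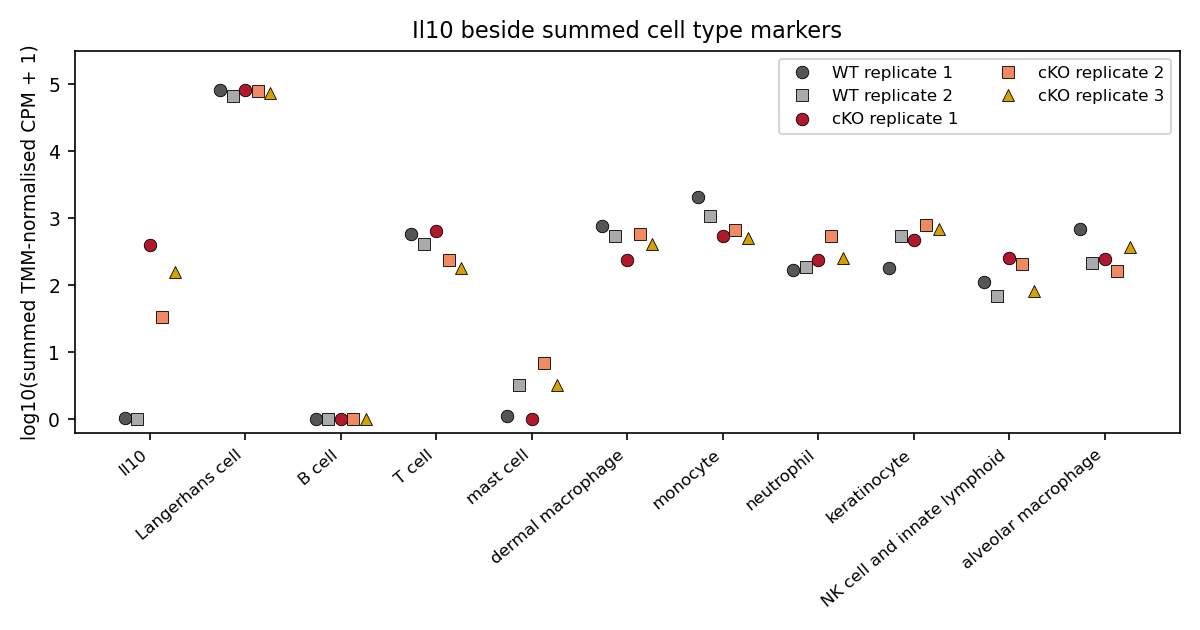
Il10 and the summed level of 10 lists of cell type markers in each library, as log10(summed TMM-normalised CPM + 1). Il10 separates the genotypes, the B cell list is at 0 in every library, and the mast cell list stays at or under 5.81 CPM.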

How the data were processed

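Polyadenylated RNA was sequenced as paired reads of 75 bp. The authors deposited raw counts per gene, which the submitters' processing notes tie to featureCounts and mm10; aligner, versions, and the handling of strand and multi-mapping reads: not given in the sources used here. The deposited gene length, per the file headers, served for CPM per kilobase. The 5 files per sample were identical to the series table. NCBI identifiers were named from RefSeq for GRCm38.p6, the same coordinates as mm10 (25275 of 27179), and GENCODE vM21 (18 more).

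Titles assigned libraries to wild type (2) or cKO (3). Genotypes were compared with edgeR 4.0.16 under R 4.3.3: filterByExpr (minimum count 10), TMM scaling, robust quasi-likelihood F test on genotype, Benjamini-Hochberg adjustment over all 9988 tested genes, threshold 0.05; limma 3.58.1 and DESeq2 1.42.0 were alternatives. The fits were tested on simulated counts. No label says that libraries came from separate animals, so p-values reflect the spread among libraries, which may be technical. Members, lists and tests were chosen with earlier results of these data known.

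Named were all 7 genes, Suz12, the listed neighbours of Il10, up to 4 genes per list and direction whose groups did not overlap, list genes without counts, and the 5 profiles nearest to Il10. Chosen after their values were seen were Il4ra, Hmox1, Ccl3, Ccl4, Il6, Il23a, Cxcl10, Tnf, Il1b, H2-Ab1, H2-Aa, Gata3, Maf, Xist, Ddx3y, Cd207, Timd4, Marco, Ear2, Krt79, Mmp9, Lyz2, Il7r, S100a8, Csf3r, Cd3e, Cd4, Cd8a, Lck, Gata2, Kit, Vcan, Klhl28 and Ppm1j. Plots used matplotlib 3.10.9 (Python 3.11.15).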

Additional observations from a re-analysis of the deposited data

How the results depend on the processing

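Over 17 alternatives edgeR, DESeq2 or limma-voom called 0 of the tested axis genes. The whole table gave 191 calls with DESeq2, 3 with the table limited to genes of at least 50 CPM on average (chosen after seeing the data; Il10ra, Il10rb, Tyk2 and Socs3 were not tested there) and 0 with each library left out. Stat3 stayed above 0 in all 17, between 0.74 and 1.19, with adjusted p-values of 0.703 to 1, and Jak1 between 0.03 and 2.41. Signs turned with limma-voom for Tyk2 (-0.051). With 1 library left out, values ran from -0.23 to 7.24 for Il10ra, -0.37 to 2.16 for Il10rb, -0.79 to 0.64 for Tyk2 and -0.37 to 1.30 for Socs3; the cause was not tested. Without wild type replicate 1 or 2 the median of all tested genes moved from 0.06 to 0.29 or 0.37, and the lone wild type library is assumed to vary like the others. Without wild type replicate 2 the lists of receptor chains, kinases and STAT factors, induced genes, restrained genes and Il10 regulators had medians below that 0.37. The inhibitor list and the other Stat3 receptors lay above it. With the replicate number as a block, 1 gene was called and Tyk2 was -0.065. Titles give both groups the numbers 1 and 2, and same-numbered libraries did not deviate together (r of -0.03 for number 1 and -0.02 for number 2, across genes). The 2 wild type libraries deviate as mirror images of each other, so these values cannot decide whether the numbers pair the samples. Counts per library limit little here beyond Suz12 and genes near the floor; the spread between libraries does.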
